A study of Mus musculus with 12 samples.

Results

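Liver RNA-seq counts were examined for 10 genes of the extracellular matrix, chosen by name from a list: the lysyl oxidases Lox, Loxl1 and Loxl2, the glycoproteins Fn1, Fbn1, Postn and Sparc, and the small leucine-rich proteoglycans Lum, Dcn and Bgn. All 10 were found among the 54532 genes counted in each library, and all 10 had enough counts to be tested in every comparison. The list did not use measured values, although it was drawn up with earlier results of these libraries known. The study's own account names Fn1, Dcn and Lum from the same libraries, and also other genes given below, among them Tnc, Thbs1, Col3a1 and Tgfb1. All directions here come from those libraries, so none is independent evidence.

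The mice were male littermates with PPARγ flox/flox alleles in every cell, injected at 8 weeks of age with an adeno-associated virus (AAV8) whose TBG promoter is active in hepatocytes. The virus carried Cre recombinase in the group labelled KO (PPARγ-KO) and eGFP in the control group labelled WT (wild-type), so the controls also bear floxed alleles and virus and are not genetically wild-type. All groups ate the FFD, a diet rich in saturated fat, cholesterol and sucrose with fructose and glucose in the drinking water, for 2 or 5 months, and no group on ordinary chow was analysed here. Each of the 4 groups had 3 libraries, and the 12 libraries held 16367775 to 27452284 counts. The labels do not say outright that the 3 libraries of a group came from separate mice, and p-values measure only the spread between these libraries.

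The extracellular matrix of the liver is built mainly by hepatic stellate cells and portal fibroblasts, which turn into myofibroblasts when the liver is injured. Collagen and elastin are secreted as soluble proteins, assemble on scaffolds of fibronectin and fibrillin, and are made insoluble when lysyl oxidases oxidize lysine side chains that then form covalent crosslinks. Small leucine-rich proteoglycans sit on collagen fibrils and govern their thickness and spacing, and matricellular proteins such as periostin and SPARC link cells to the fibrils. Hepatocytes, the cells that receive Cre here, contribute plasma fibronectin but are not known as the main source of the other members.

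Pparg, the targeted gene, was counted higher in the libraries labelled PPARγ-KO than in wild-type. Its normalized levels (CPM, the deposited counts per 1000000 of the library after the TMM adjustment of edgeR) were 38.8, 41.4 and 37.6 in wild-type and 50.4, 66.5 and 52 in PPARγ-KO at 2 months. At 5 months they were 36.9, 41.4 and 37.1 in wild-type and 86.5, 92.9 and 75 in PPARγ-KO. Counts over the whole gene cannot show whether the floxed exons were lost, so the labels could not be checked this way, and every direction below follows the labels. The study itself reports, from Western blots of liver, that PPARγ protein was efficiently lost in PPARγ-KO at both times. Wild-type replicate 1 at 2 months stood apart from its group. The chi-square per gene between it and the other replicates was 31.7 and 27.6, against 10.3 between those, and it held the lowest level of its group for 8 of the 10 members. Results of the members at 2 months are therefore given with and without it. Counts for the other gene lists at 2 months include it and were not repeated without it. At 5 months wild-type replicates 2 and 3 were closer to each other (2.44) than any other pair within a group. Wild-type replicate 1 at 5 months differed from them by 13.1 and 14.6, within the 9.4 to 17.5 of the PPARγ-KO groups. It was lowest of its group for 8 of the 10 members. The labels do not say why replicates 2 and 3 were so alike, and the p-values at 5 months rest on a spread that includes them.

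Promoter sequence is shown for Postn and Sparc, because these are the members with a RefSeq promoter entry (build GRCm38.p6) called lower in PPARγ-KO than in wild-type at 5 months. By symbol, 4 of the 10 members matched an entry (Fbn1, Postn, Sparc and Bgn, with 5 windows between them). Each sequence is the 250 bases before the RefSeq start, 5′ to 3′ on the gene's own strand. Capitals mark any match on either strand to the motifs searched. The Sparc and Fbn1 windows lie inside the gene bounds of the deposited files, where these minus-strand genes begin at 55423183 and 125507993. For these genes the windows are therefore not the bases before the start of the gene as counted.
Postn, chr3:54360857-54361106, plus strand: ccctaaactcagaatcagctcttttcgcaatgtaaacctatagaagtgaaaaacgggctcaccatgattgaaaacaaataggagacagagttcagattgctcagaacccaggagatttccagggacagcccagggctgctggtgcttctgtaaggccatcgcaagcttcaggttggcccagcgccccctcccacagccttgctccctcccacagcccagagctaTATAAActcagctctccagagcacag
Sparc, chr11:55420081-55420330, minus strand: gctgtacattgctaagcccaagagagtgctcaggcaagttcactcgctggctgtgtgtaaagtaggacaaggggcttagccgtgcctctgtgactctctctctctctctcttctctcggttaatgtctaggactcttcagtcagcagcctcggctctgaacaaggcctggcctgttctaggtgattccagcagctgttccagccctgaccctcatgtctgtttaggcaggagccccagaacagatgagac
Both strands were searched for 4 motifs that share no overlap in these windows. The TATA box, where basal transcription factors bind, was searched as TATAAA and the binding site of NF-Y by its name, the CCAAT box. For the AP-1 factors the letters were TGACTCA. The core of nuclear receptor motifs was searched as AGGTCA. The Postn window held TATAAA, its first base 26 bases before the start, and none of the others. A second Postn window with an upstream start held AGGTCA on the opposite strand 138 bases before that start, and the Sparc, Fbn1 and Bgn windows held none of the 4. Over 32851 RefSeq windows of this length, 12.4% held the TATA box letters, 33.8% the CCAAT box, 4.46% the AP-1 letters and 14% the nuclear receptor core. The matches describe these letters only.

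Set against gene length, as CPM per kilobase of the gene length in the deposited files, the members differed widely in level. Fn1 stood first in all 4 groups, at 162 ± 17.8 (SD, n = 3) CPM per kilobase in wild-type at 2 months. Dcn, Sparc and Bgn followed at 33.5 ± 0.439, 29.3 ± 7.31 and 27.9 ± 1.23, and there Sparc overlapped both of its neighbors. Lum came next at 5.42 ± 1.39 and Postn at 2.57 ± 0.562. Loxl1, Loxl2 and Fbn1 lay at 1.72 ± 0.545, 1.53 ± 0.453 and 1.12 ± 0.301 with overlapping libraries, and Lox was lowest at 0.33 ± 0.109. The order changed little among groups. Bgn stood above Sparc in PPARγ-KO at 2 months without overlap, and in wild-type at 5 months Lox (0.684 ± 0.333) and Fbn1 (0.603 ± 0.124) exchanged places with overlapping libraries.

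**Figure D1:**
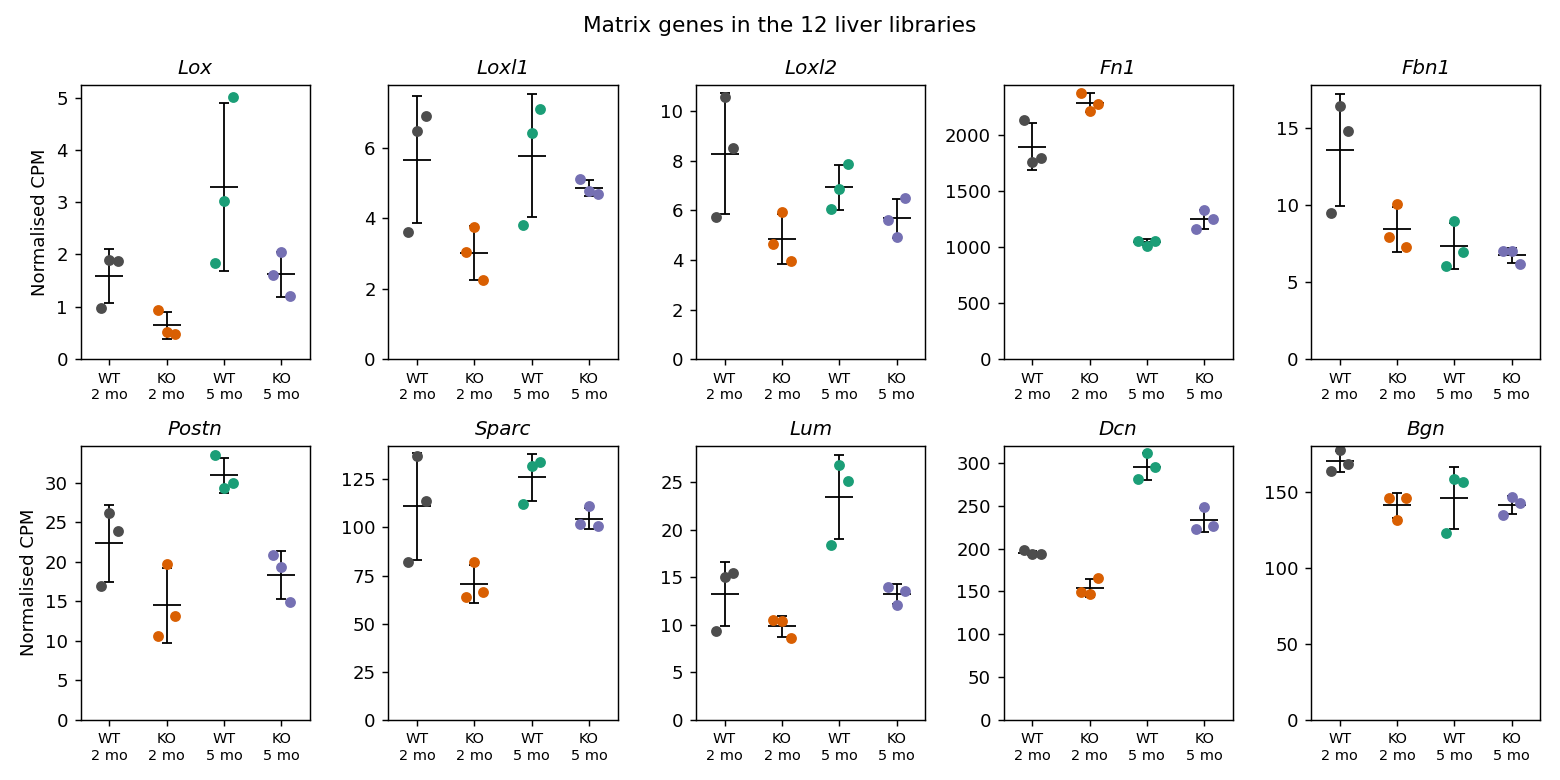
Normalized CPM of the 10 members (vertical axes from 0) in each of the 12 libraries, by group (wild-type WT, PPARγ-KO KO, at 2 and 5 months); points are libraries and bars the mean ± SD of 3. Dcn in PPARγ-KO lies below wild-type at both times without overlap (147 to 166 against 194 to 198 CPM at 2 months), while Fn1 lies above it.

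The first question was whether PPARγ-KO livers differ from wild-type at 2 months. Of the 10 members, 9 had a lower fitted level in PPARγ-KO and Fn1 a higher one, with a median log2 fold change of -0.64 beside -0.005 over all 14573 genes tested. At an adjusted p below 0.05 (the quasi-likelihood test of edgeR, adjusted across every gene tested by Benjamini-Hochberg), Dcn was called lower and no member was called higher, where 1.78% of all genes were called lower and 1.78% higher. All 10 members had an unadjusted p below 0.05, which 18.9% of all genes had. The libraries did not overlap for Lox, Dcn and Bgn, all lower in PPARγ-KO (12% of all genes), and for Fn1, higher (12.1%).

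Dcn encodes decorin, a proteoglycan that binds collagen fibrils and TGF-β. Its CPM were 198, 194 and 194 in wild-type and 149.7, 147 and 166 in PPARγ-KO at 2 months, a log2 fold change of -0.34 (SE 0.0724, adjusted p = 0.0316). The wild-type libraries were close together and every PPARγ-KO library lay below them. The call was lost when any library other than wild-type replicate 1 was left out (adjusted p 0.0502 to 0.153, without PPARγ-KO replicate 3 and without PPARγ-KO replicate 1, respectively).

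Lox, the founding lysyl oxidase, had the largest difference of the members, a log2 fold change of -1.32 (SE 0.4, adjusted p = 0.106). Its CPM were 0.982, 1.9 and 1.88 in wild-type and 0.931, 0.513 and 0.484 in PPARγ-KO, from 18 to 37 and 9 to 18 counts per library. The lowest wild-type and highest PPARγ-KO libraries nearly met, and such low counts limit the precision. Loxl1, known for its role in elastic fiber upkeep, had 3.6, 6.48 and 6.9 CPM in wild-type and 3.05, 3.76 and 2.23 in PPARγ-KO. The fitted difference was -0.93 on the log2 scale (SE 0.285, adjusted p = 0.112). Loxl2, which also crosslinks collagen IV, had 5.73, 10.6 and 8.52 CPM in wild-type and 4.66, 5.93 and 3.94 in PPARγ-KO, with a fitted log2 difference of -0.79 (SE 0.242, adjusted p = 0.113). In both genes only wild-type replicate 1 reached down among the PPARγ-KO libraries.

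Fbn1 encodes fibrillin-1, the backbone of microfibrils, which carry elastin and store latent TGF-β. It had 9.44, 16.4 and 14.8 CPM in wild-type and 7.92, 10.03 and 7.26 in PPARγ-KO (log2 fold change -0.7, SE 0.213, adjusted p = 0.116). Postn encodes periostin, a matricellular protein that binds collagen and fibronectin, and had 16.9, 26.2 and 23.9 CPM in wild-type and 10.6, 19.7 and 13.1 in PPARγ-KO (-0.63, SE 0.262, adjusted p = 0.261). Sparc encodes a calcium-binding matricellular protein that chaperones collagen, and had 81.8, 137 and 114 CPM in wild-type and 63.9, 81.8 and 66.3 in PPARγ-KO (-0.65, SE 0.199, adjusted p = 0.154). The groups of these 3 genes overlapped through wild-type replicate 1, with PPARγ-KO replicate 2 the highest of its group each time.

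Lum encodes lumican, a proteoglycan of collagen fibrils, and had 9.33, 15 and 15.4 CPM in wild-type and 10.5, 10.4 and 8.56 in PPARγ-KO (-0.44, SE 0.192, adjusted p = 0.257). Wild-type replicate 1 here lay within the range of PPARγ-KO. Bgn encodes biglycan, a close relative of decorin, and had 164, 178 and 169 CPM in wild-type and 146, 132 and 146 in PPARγ-KO (-0.27, SE 0.0728, adjusted p = 0.076). Fn1 encodes fibronectin, the member that hepatocytes themselves secrete into plasma. It had 2132, 1757 and 1790 CPM in wild-type and 2375, 2207 and 2271 in PPARγ-KO (0.27, SE 0.101, adjusted p = 0.185).

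Wild-type replicate 1 held 51.9% to 67.2% of the mean of the other wild-type libraries for Lox, Loxl1, Loxl2, Fbn1, Postn, Sparc and Lum at 2 months. For Bgn, Dcn and Fn1 it held 94.3%, 102% and 120.2%. Without it, 8 members were called lower (5.25% of all genes) and Fn1 higher (5.31%), and Postn was not called (-0.8, adjusted p = 0.142). The log2 fold changes were then -1.56 for Lox (adjusted p = 0.0245), -1.17 for Loxl1 (0.00844), -0.99 for Loxl2 (0.00923) and -0.9 for Fbn1 (0.00341). They were -0.83 for Sparc (0.00488), -0.64 for Lum (0.0104), -0.33 for Dcn (0.0141), -0.29 for Bgn (0.024) and 0.37 for Fn1 (0.00629). Without any other library of the 6, no member was called. The summed CPM of 6 myofibroblast markers was 14.8 in wild-type replicate 1 against 19.7 and 22.7 in the others, that of 10 hepatocyte markers 72959 against 61940.1 and 66569, and that of 10 stellate cell markers 344 against 373 and 333. It was 20.4 against 27.3 and 24.9 for 8 portal fibroblast markers, 474 against 575 and 558 for 10 endothelial markers, 118 against 198 and 152 for 7 cholangiocyte markers and 493 against 628 and 538 for 10 macrophage markers. The part of these in the result was not tested.

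**Figure D2:**
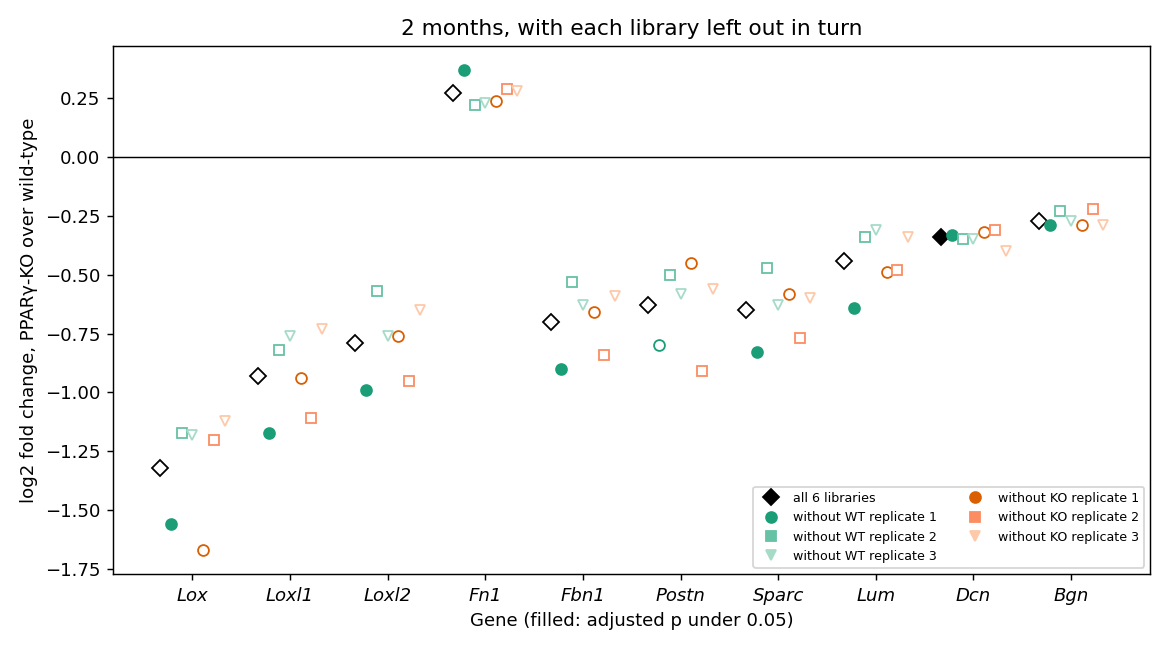
Log2 fold change of each member (vertical axis, PPARγ-KO over wild-type at 2 months, edgeR) with all 6 libraries and after leaving out each library; filled symbols have an adjusted p below 0.05. With all 6 libraries Dcn alone is filled, and without wild-type replicate 1 every member but Postn is filled.

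At 2 months the libraries with the same replicate number in both genotypes deviated weakly together (correlations 0.14 to 0.324). The fit with the number as a block is therefore given beside the main one. Libraries with different numbers reached 0.114, so these values do not establish that the numbers pair libraries. With the block, 5 members were called lower (2.65% of all genes) and none higher. They were Sparc (-0.63, adjusted p = 0.00628), Postn (-0.65, 0.0127), Dcn (-0.34, 0.0376), Fbn1 (-0.67, 0.0385) and Loxl2 (-0.76, 0.0482). Lox (adjusted p = 0.13), Loxl1 (0.0928), Bgn (0.103), Lum (0.274) and Fn1 (0.22) were not called. The study's thresholds were an unadjusted p below 0.05 and a change of at least 1.3-fold. At these, 7 members were lower at 2 months (6.48% of all genes) and none higher (4.55%). Those beneath 1.3-fold were Dcn, Bgn and Fn1. The study's pathway lists name Dcn at both times, whereas in this fit its change was 1.27-fold at 2 months and 1.26-fold at 5 months.

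At 5 months, 4 members were called lower in PPARγ-KO and Fn1 was called higher, beside 9.51% and 8.9% of all genes. Of the 10, 9 had a lower fitted level, with a median log2 fold change of -0.27 beside -0.006 over all 14138 genes tested. The libraries did not overlap for the same 5 genes (4 lower, beside 19% of all genes, and Fn1 higher, beside 15.9%). At the study's thresholds Lum, Postn and Lox were lower (9.89% of all genes) and no member was higher (7.07%). Without wild-type replicate 1, 5 members were called lower and Fn1 higher. Over all genes 3078 were then called, against 2602 with every library.

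Lum fell most among the called members. Its CPM were 18.4, 26.8 and 25.1 in wild-type and 14, 12.1 and 13.6 in PPARγ-KO, a log2 fold change of -0.82 (SE 0.134, adjusted p = 0.00125). Postn had 33.5, 29.3 and 30.01 CPM in wild-type and 20.8, 19.3 and 14.9 in PPARγ-KO (-0.74, SE 0.111, adjusted p = 0.000592). Every PPARγ-KO library of both genes lay below every wild-type library. Dcn, on chromosome 10 with Lum as its neighbor 47 kilobases away, had 281, 312 and 295 CPM in wild-type and 223, 249 and 227 in PPARγ-KO (-0.33, SE 0.0705, adjusted p = 0.0052). The calls of these 3 genes held without each library in turn, and that of Postn was lost in the fit of all 12 libraries (adjusted p = 0.0515).

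Sparc had 112, 132 and 134 CPM in wild-type and 102, 111 and 101 in PPARγ-KO (-0.26, SE 0.0777, adjusted p = 0.034). The groups nearly met, and the call was lost without wild-type replicate 2 (adjusted p = 0.141), wild-type replicate 3 (0.158), PPARγ-KO replicate 1 (0.0983) or PPARγ-KO replicate 3 (0.129), and in the fit of all 12 libraries (0.334). Fn1 had 1055, 1010.5 and 1055 CPM in wild-type and 1157, 1331 and 1247 in PPARγ-KO (0.27, SE 0.0759, adjusted p = 0.0258). All PPARγ-KO libraries lay above wild-type. The call was lost without wild-type replicate 2 (adjusted p = 0.123), wild-type replicate 3 (0.0784), PPARγ-KO replicate 2 (0.0939) or PPARγ-KO replicate 3 (0.0764), with the library size alone as the scale (0.0567) and in the fit of all 12 libraries (0.0604).

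The lysyl oxidases were not called at 5 months. Lox had 1.84, 3.03 and 5.01 CPM in wild-type and 1.6, 2.05 and 1.2 in PPARγ-KO (-1.01, SE 0.353, adjusted p = 0.0707). Wild-type replicate 1 was the only wild-type library within the range of PPARγ-KO, and without it the adjusted p was 0.00693 (log2 fold change -1.29). Without wild-type replicate 3, the highest, the difference shrank to -0.57 (adjusted p = 0.34). Loxl1 had 3.79, 6.41 and 7.1 CPM in wild-type and 5.1, 4.77 and 4.67 in PPARγ-KO (-0.24, SE 0.213, adjusted p = 0.487). Loxl2 had 6.04, 6.88 and 7.88 CPM in wild-type and 5.61, 4.92 and 6.5 in PPARγ-KO (-0.29, SE 0.163, adjusted p = 0.267). The groups of all 3 enzymes overlapped.

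Fbn1 had 6.04, 8.97 and 6.94 CPM in wild-type and 7.03, 6.97 and 6.18 in PPARγ-KO at 5 months (-0.11, SE 0.163, adjusted p = 0.71). Bgn had 123, 159 and 157 CPM in wild-type and 135, 147 and 143 in PPARγ-KO (-0.03, SE 0.0933, adjusted p = 0.855). The libraries of both genes were interleaved, and the sign of the small difference turned when single libraries were left out.

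**Figure D3:**
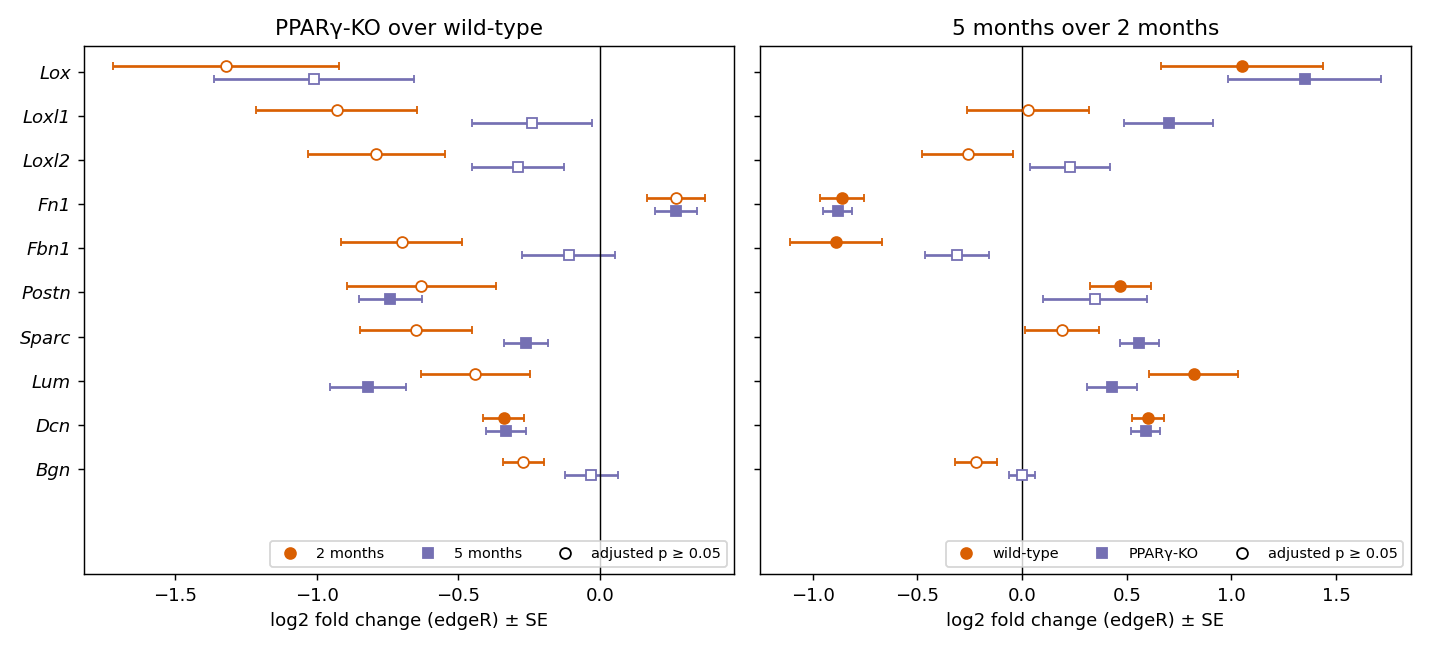
Log2 fold change ± SE of each member (horizontal axes, edgeR) for PPARγ-KO over wild-type at each time (left) and for 5 months over 2 months in each genotype (right); filled symbols have an adjusted p below 0.05. Fn1 lies at 0.27 at both times on the left while all other members lie below 0, and on the right Fn1 lies at -0.86 and -0.88.

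Whether the genotype difference itself changed between the times was tested as an interaction over all 12 libraries. None of the 10 members was called (edgeR, with 1.57% of all genes called in either direction), and none had an unadjusted p below 0.05. DESeq2 likewise called none. The differences of differences, 5 months minus 2 months, ran from -0.39 for Lum (SE 0.256, adjusted p = 0.52) to 0.68 for Loxl1 (SE 0.381, adjusted p = 0.437). The members called at a single time are therefore not shown to differ between the times.

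In wild-type, 4 members rose from 2 to 5 months and 2 fell, beside 23.8% and 22.7% of all genes. Dcn rose from 196 ± 2.56 to 296 ± 15.3 CPM (SD, n = 3; log2 fold change 0.6, SE 0.0771, adjusted p = 0.000135). Lum rose from 13.3 ± 3.41 to 23.4 ± 4.43 CPM (0.82, SE 0.212, adjusted p = 0.0141), Postn from 22.3 ± 4.89 to 30.9 ± 2.26 (0.47, SE 0.145, adjusted p = 0.0241) and Lox from 1.59 ± 0.525 to 3.29 ± 1.6 (1.05, SE 0.388, adjusted p = 0.0472). The groups did not overlap for Dcn, Lum and Postn and overlapped for Lox. Fn1 fell from 1893 ± 208 to 1040.4 ± 25.9 CPM (-0.86, SE 0.104, adjusted p = 8.45e-05) and Fbn1 from 13.5 ± 3.65 to 7.32 ± 1.5 (-0.89, SE 0.22, adjusted p = 0.00879), both without overlap. The Lox call was lost without any 1 of 5 libraries: replicates 1, 2 and 3 at 2 months (adjusted p = 0.102, 0.0666 and 0.076) and replicates 2 and 3 at 5 months (0.0825 and 0.235). It was also lost with the library size alone (0.0833) and with at least 10 counts required in every library (0.0536). The Postn call was lost without replicate 1 or 3 at 5 months (0.0814 and 0.0513), with the library size alone (0.0916) and in the fit of all 12 libraries (0.104).

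Loxl1 (0.03, SE 0.291), Loxl2 (-0.26, SE 0.217), Sparc (0.19, SE 0.178) and Bgn (-0.22, SE 0.102) were not called over time in wild-type, with adjusted p of 0.945, 0.358, 0.43 and 0.1. Without wild-type replicate 1 at 2 months Loxl2 was called lower at 5 months (-0.46, adjusted p = 0.0422). The labels and methods give no preparation dates for either time, so time and batch cannot be told apart, and the ages of the mice differ with the time on diet.

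In the libraries labelled PPARγ-KO, 5 members rose from 2 to 5 months and Fn1 fell, beside 22.7% and 22.2% of all genes. Fn1 fell from 2284 ± 84.7 to 1245 ± 86.8 CPM (SD, n = 3; -0.88, SE 0.0701, adjusted p = 4.71e-06). Dcn rose from 154 ± 10.4 to 233 ± 14.2 CPM (0.59, SE 0.0682, adjusted p = 5.19e-05) and Sparc from 70.7 ± 9.75 to 104 ± 5.58 (0.56, SE 0.0923, adjusted p = 0.000695). Lum rose from 9.83 ± 1.1 to 13.2 ± 0.984 CPM (0.43, SE 0.119, adjusted p = 0.0128), Lox from 0.643 ± 0.25 to 1.62 ± 0.426 (1.35, SE 0.364, adjusted p = 0.0108) and Loxl1 from 3.02 ± 0.765 to 4.84 ± 0.224 (0.7, SE 0.212, adjusted p = 0.0191). The groups did not overlap for any of these 6 genes. The Loxl1 call was lost without replicate 3 at 2 months (adjusted p = 0.0626) or replicate 1 at 5 months (0.0574), and the Lox call without replicate 2 at 5 months (0.0523). In the fit of all 12 libraries the calls of Lum (0.0745) and Loxl1 (0.0525) were lost.

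Postn (0.35, SE 0.248, adjusted p = 0.297), Loxl2 (0.23, SE 0.192, 0.345), Fbn1 (-0.31, SE 0.153, 0.117) and Bgn (0, SE 0.0626, 0.976) were not called over time in PPARγ-KO. Postn was called higher at 5 months without replicate 2 at 2 months (0.62, adjusted p = 0.00927). Comparisons over time and between genotypes share libraries, so their values are not independent of each other.

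**Figure D4:**
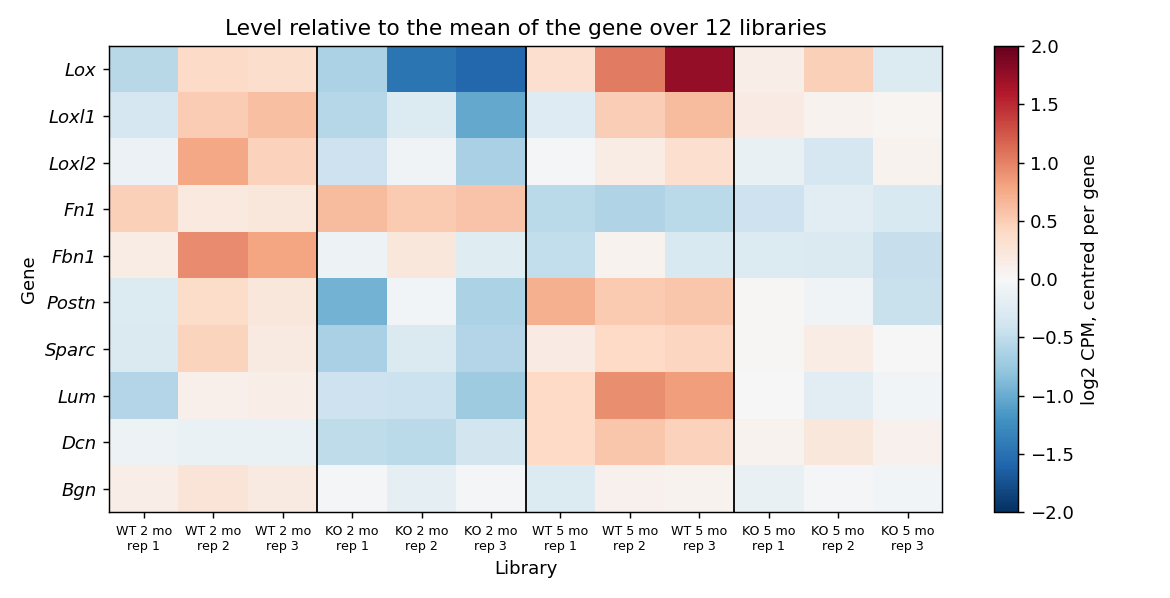
Level of each member (rows) in each library (columns, grouped by genotype and time; rep, replicate), as log2 CPM minus the gene's mean over the 12 libraries. Fn1 is above its mean in all 6 libraries at 2 months and below it in all 6 at 5 months, and Dcn the reverse in both genotypes.

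The members did not follow one pattern over the 12 libraries. Likeness was measured as the root mean square difference between centered log2 CPM profiles, among 13169 genes, where a value of 0 means equal profiles. The member nearest to Loxl2, Postn, Lum, Dcn and Loxl1 was Sparc each time, at 0.229 (Loxl1) to 0.281 (Lum). By rank among all genes compared, Sparc stood at 4 for Loxl1, 15 for Postn, 61 for Loxl2, 250 for Lum and 1527 for Dcn. Fn1 and Lox were farther from every member, the nearest being Bgn at 0.455 for Fn1 and Lum at 0.531 for Lox. The distance also depends on how much each gene varies. The root mean square of the gene's own centered profile was 0.461 for Fn1 and 0.148 for Bgn, so Bgn as nearest to Fn1 does not show a shared pattern. Among all genes, the nearest was Nid1, which encodes the basement membrane protein nidogen-1, for Loxl1 (0.22), Pmepa1 for Sparc (0.117), Lpcat2 for Lum (0.114) and Trmt61a for Postn (0.184). It was Clec7a for Lox (0.338), Alpl for Loxl2 (0.111), Slc26a2 for Fbn1 (0.161), Kmt2e for Fn1 (0.0879), Rras2 for Dcn (0.0764) and Abcb8 for Bgn (0.076). These distances describe the 12 libraries, which share genotype and time, and carry no test.

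Markers of other cells in the tissue were summed per library, as levels with no test. The sum of 10 stellate cell markers lay between 333 and 373 in wild-type and 283 and 293 in PPARγ-KO at 2 months, and between 352 and 364 and 312 and 325 at 5 months. That of 6 myofibroblast markers lay between 14.8 and 22.7 and 12 and 20.3 at 2 months, and between 25.1 and 28 and 9.48 and 14.6 at 5 months, where the groups did not overlap and Acta2, the classical myofibroblast actin, fell (-1.36, adjusted p = 0.00422). Cnn1 of that list was at 0 in 4 libraries. The 8 portal fibroblast markers summed to 20.4 to 27.3 in wild-type and 19.9 to 27.9 in PPARγ-KO at 2 months, and to 42.6 to 56.5 and 30.1 to 45.6 at 5 months, with Gli1 at 0 in 2 libraries and Clec3b in 3. The 10 macrophage markers summed to 493 to 628 and 510.5 to 613 at 2 months, and to 1384 to 1598 and 635 to 874 at 5 months. Stellate cell sums were thus lower in PPARγ-KO at both times without overlap and macrophage sums at 5 months alone, while portal fibroblast sums overlapped at both times. Those of hepatocytes, including Alb, were far higher throughout (61004 to 92968) and higher in PPARγ-KO at both times, as was Fn1. Much of that sum was Alb, at 57050.4 ± 5256 CPM in PPARγ-KO and 36942 ± 2695 in wild-type at 5 months. Of the 10 hepatocyte markers, 0 had a lower fitted level in PPARγ-KO at 2 months and 3 did at 5 months. From 2 to 5 months the mean sums were 67156 and 64509.6 in wild-type and 85119 and 86708 in PPARγ-KO, while Fn1 fell in both genotypes. In bulk liver, fewer cells of a type and less RNA per cell cannot be told apart. The part of any of these in the members' differences was not tested.

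Markers of the remaining cell types were also summed. The 10 endothelial markers summed to 474 to 575 in wild-type and 479.5 to 537 in PPARγ-KO at 2 months, and to 375 to 402 and 329 to 344 at 5 months. The 7 cholangiocyte markers summed to 118 to 198 and 85.1 to 106 at 2 months, and to 149 to 294 and 223 to 266 at 5 months. At 2 months 3 of the 7 had a lower fitted level in PPARγ-KO (median log2 fold change 0.06) and none was called. Most of the list thus did not share the lower sum. The 6 neutrophil markers summed to 6.6 to 9.26 in wild-type and 4.96 to 5.92 in PPARγ-KO at 2 months, and to 8.17 to 13.8 and 4.35 to 7.17 at 5 months, without overlap at either time. The 6 B cell markers summed to 4.91 to 8.13 and 4.5 to 5.9 at 2 months, and to 5.21 to 6.99 and 1.89 to 3.4 at 5 months, where they did not overlap. In the neutrophil list and in the B cell list, 2 of the 3 genes tested at 5 months were called lower, beside 9.51% of all genes. The other listed genes of both had too few counts to be tested. The 8 T and NK cell markers overlapped at both times (at most 14.5 CPM), as did the 7 mesothelial markers (at most 13.6). Erythroid markers summed to 239 to 661 CPM. The part of these in the members' differences was not tested either.

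Other matrix genes were counted by lists. Of 70 further matrix genes tested at 2 months, 57 had a lower fitted level in PPARγ-KO (median -0.31, beside -0.005 over all genes). Over all genes 1.78% were called lower and 1.78% higher, and of the 70 a share near that, 2 genes, were called, both lower. These were Tgfbi, a TGF-β-induced adhesion protein (85 ± 6.67 against 61.1 ± 2.1 CPM, log2 fold change -0.48, adjusted p = 0.013), and Matn2, which encodes matrilin-2 (6.05 ± 1.99 against 2.57 ± 0.143 CPM, -1.24, adjusted p = 0.0267). At 5 months 17 of 71 were called lower and 5 higher (median -0.15). Over all genes, 9.51% were called lower and 8.9% higher in that comparison, the background for each list count at 5 months below, and several of those counts lie near it.

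Among 14 tested genes of elastic fibers and microfibrils, the relatives of Fbn1, 4 were called lower and 1 higher at 5 months (9.51% and 8.9% of all genes). Those lower were Emilin1 (-0.35, adjusted p = 0.00308) and Emilin2 (-0.93, 0.00335), which bind elastin, Ltbp2 (-1.36, 0.00646), a fibrillin-binding protein, and Efemp2 (-0.48, 0.02), which encodes fibulin-4 and brings lysyl oxidase to elastin. Of 23 other adhesive and matricellular glycoproteins, 4 were lower and 1 was higher, beside the same 9.51% and 8.9%. Tnc, which encodes tenascin-C, was lower at 2.29 ± 0.454 CPM in PPARγ-KO against 5.89 ± 0.81 in wild-type (-1.34, adjusted p = 0.000626). Thbs1 (-0.88, 0.0112), an activator of latent TGF-β, and Nid1 (-0.31, 0.0175) were lower, and Smoc1, a relative of Sparc, was higher at 109.9 ± 9.35 against 81.1 ± 3.09 CPM (0.45, adjusted p = 0.000937).

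Of 10 other proteoglycans tested at 5 months, Srgn, which encodes the serglycin of blood cell granules, was lower (-0.88, adjusted p = 0.000296) and Omd, which encodes the leucine-rich proteoglycan osteomodulin, was higher (0.8, 0.00174). Of 18 other crosslinking and collagen processing genes, 3 were lower and 1 higher, a count close to the 9.51% and 8.9% of all genes. Tgm2, a transglutaminase that forms a different kind of crosslink, was lower at 151 ± 5.54 against 256 ± 17.4 CPM (-0.75, adjusted p = 1.44e-05). Pcolce2 (-1.07, 0.0157), an enhancer of procollagen cleavage, and Serpinh1 (-0.31, 0.0406), the collagen chaperone, were lower. Bmp1, the protease that trims procollagens and prolysyl oxidase, was higher at 125 ± 2.97 against 79.8 ± 2.41 CPM (0.66, adjusted p = 1.28e-05).

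The fibrillar collagens that these proteins crosslink and decorate were all called at 5 months, 5 lower and 1 higher, and none at 2 months (5 of 6 lower in fitted level, median -0.96). At 5 months Col3a1 had 91.8 ± 7.09 CPM in PPARγ-KO and 175 ± 26.7 in wild-type (-0.92, adjusted p = 0.000322), Col5a2 differed by -0.71 (0.00225) and Col5a1 by -0.43 (0.0125), and Col5a3 was higher (0.63, 0.0038). Of 15 matrix receptors tested, Cd44, a hyaluronan receptor (-1.1, 1.73e-05), and Itga4 (-0.79, 0.0132) were lower and Sdc4, which encodes syndecan-4, was higher (0.56, 0.00041). Of 11 genes of the TGF-β pathway, 3 were lower at 5 months (9.51% of all genes) and none higher (8.9%): the receptors Tgfbr2 (-0.27, 0.00879) and Tgfbr1 (-0.25, 0.0297), and the ligand Tgfb1 (-0.61, 0.0126). Tgfbr2 was the member of that list called at 2 months (-0.61, 0.0165). The study reports both Tgfb1 and Tgfbr2 mRNA as lower at both times.

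The members lie on 9 chromosomes of mm10: Lox on 18, Loxl1 on 9 (58287738 to 58313186), Loxl2 on 14 (69609068 to 69695834), Fn1 on 1 (71585520 to 71653200) and Fbn1 on 2 (125300594 to 125507993). Postn lies on 3 (54361109 to 54391037), Sparc on 11 (55394500 to 55423183), Bgn on X (73483602 to 73495933), and Dcn (97479609 to 97518143) and Lum (97565128 to 97572703) lie side by side on 10. All 10 are annotated as protein coding, and counts cover whole genes. Loxl2 overlaps 3 annotated genes, and Fn1 and Fbn1 overlap 1 each, none with more than 9 counts in any library.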

How the data were processed

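Total RNA of whole liver was extracted with TRIzol, and Novogene prepared the libraries and sequenced them on the NovaSeq platform. The authors deposited, per library, raw read counts on each of 54532 genes, with no normalization. Reads had been aligned to mm10, with STAR according to the study's methods and HISAT2 according to the submitters' processing notes. The counting program, annotation version and strand setting are not given in the sources used here.

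Groups were taken from the sample labels. The genotypes were compared at each time, and 5 with 2 months in each genotype, each in its own fit of 6 libraries, and the interaction in a fit of all 12 (R 4.3.3, edgeR 4.0.16, limma 3.58.1). Genes were filtered by filterByExpr, scaled by TMM, tested by the robust quasi-likelihood F-test (two-sided) and given a Benjamini-Hochberg adjustment across every gene tested. Scripts were tested on simulated data. The gene and motif lists and the members were chosen with earlier results of these data known. Named genes were all members, Pparg, up to 4 genes per other list and comparison of genotypes with the lowest adjusted p past 0.05, and each member's nearest genes by profile (mean of at least 1 CPM, prior count 0.5). An item withheld from the lists is not reported here.

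On the 5000 most abundant genes, deviations of same-numbered libraries from their group means correlated at 0.22, 0.324 and 0.14 between genotypes at 2 months, and at -0.0779, -0.0603 and -0.179 at 5 months. Libraries with different numbers ran from -0.274 to 0.114 at 2 months. Between wild-type at 5 and 2 months, same-numbered libraries correlated at 0.238, 0.185 and 0.0191, and replicate 3 at 5 months with replicate 2 at 2 months at 0.266. Values of this size therefore do not establish pairing. Taking the numbers to pair libraries at 2 months is only a reading of the data, since the labels do not say what a number marks. None of the libraries duplicated another (chi-square per gene 2.44 to 31.7 within groups). Alternatives were other scalings, DESeq2 1.42.0, other filters, the replicate block, the study's thresholds, a fit of all 12 libraries and each library left out.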

Additional observations from a re-analysis of the deposited data

Results flagged for a closer look

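None of the 10 members differed in its genotype difference between the times by the interaction test. Pparg, the targeted gene, did: the log2 fold change of the libraries labelled PPARγ-KO over wild-type was larger by 0.62 at 5 months than at 2 months (SE 0.145, adjusted p = 0.0432 by edgeR). The log2 fold change was 0.52 at 2 months (SE 0.107, adjusted p = 0.0309) and 1.15 at 5 months (SE 0.0847, adjusted p = 2.57e-06). The call at 2 months was lost with the library size alone as the scale (adjusted p = 0.0727) and without any 1 of 5 of the 6 libraries, all but wild-type replicate 1 (up to 0.117). PPARγ-KO libraries held 50.4 to 66.5 CPM at 2 months and 75 to 92.9 at 5 months, while wild-type held 37.6 to 41.4 and 36.9 to 41.4. The call of the interaction was lost without any 1 of 9 of the 12 libraries (adjusted p up to 0.122), and with the library size alone as the scale (0.0585).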

How the results depend on the processing

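At 2 months the number of members called in PPARγ-KO against wild-type was 1, and it depended on the setting: 2 with the library size alone, 5 with DESeq2, 10 with no filter, 5 with the replicate block, 4 in the fit of all 12 libraries, 7 at the study's thresholds, and 0 to 9 with single libraries left out. The calls over all genes moved too, from 519 to 520, 988, 1562, 817, 1153 and 1608 in that order, and to 117 to 1577 with single libraries left out. At 5 months it was 5, against 2 in the fit of all 12 libraries, 3 at the study's thresholds and 3 to 6 with single libraries left out; with the replicate block 4 were called, Fn1 no longer (adjusted p = 0.0525). Over time, the count of 6 in each genotype ran from 4 to 7 under all alternatives, and the interaction stayed at 0. Bgn passed over time in wild-type with the block (adjusted p = 0.0407). The median log2 fold change of the members over time in wild-type ranged from -0.1 to 0.27 with single libraries left out (-0.1 without replicate 1 at 2 months, main value 0.11), and all other medians kept their sign. The cause was not tested. Uncalled values near 0 changed sign with single libraries left out: Fbn1 (-0.23 to 0.06) and Bgn (-0.14 to 0.03) at 5 months, Loxl1 (-0.21 to 0.26) and Pparg (-0.08 to 0.01) over time in wild-type, Bgn (-0.04 to 0.04) over time in PPARγ-KO, and Fn1 (-0.1 to 0.04), Postn (-0.29 to 0.16) and Dcn (-0.06 to 0.05) for the interaction. With the library size alone, Loxl1 over time in wild-type was -0.05, Bgn over time in PPARγ-KO -0.05, and Fn1 and Dcn for the interaction 0 and 0.02. Bgn over time in PPARγ-KO was 0 with no filter and -0.01 with at least 10 counts in every library, a filter that removed Lox at 2 months. Depth limits Lox most, with 9 to 96 counts per library.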
